A study of Sus scrofa with 9 samples.

Results

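The genes described here build and run the mitotic spindle, together with the kinesin motors that carry cargo outside mitosis. They were all entries of the deposited expression table whose gene symbol begins with KIF and a digit, with CENP, BUB1, BUB3, AURK, PLK1 to PLK4, a cyclin A or B name, CDCA, SPC2 or NCAP, or is one of a short list of mitotic genes such as CDK1, CDC20, NDC80, TTK, TPX2, TOP2A and FOXM1. This rule took 83 genes, each on 1 entry, of 19643 entries, of which 11179 carried a symbol. Another 17 symbols that meet the rule, among them BIRC5, CCNA2, CENPA, MAD2L1, NUSAP1 and PLK4, were not matched to an entry and were not analysed here.

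In mitosis, cyclin B with CDK1 drives entry, condensins compact the chromosomes, and kinetochores built on the centromere attach them to spindle microtubules. The spindle checkpoint holds back the anaphase-promoting complex until every kinetochore is attached, after which cyclin B and the cohesin lock on sister chromatids are removed. Kinesins are motors that walk along or take apart microtubules; some act on the spindle and are transcribed mainly in dividing cells, whereas others carry vesicles, organelles or ciliary cargo in cells that no longer divide. In developing muscle, myoblasts divide before they fuse, and the nuclei of the fused fibres have left the cell cycle.

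RNA came from the longissimus dorsi, a long back muscle, of embryonic pigs of 3 breeds, with 3 libraries each. Tibetan and Wujin are indigenous Chinese breeds and Large White is an introduced breed. No gestational day is stated beyond the embryonic stage, so a difference in developmental stage cannot be told apart from a difference of breed. No treatment or genetic change is named for any group, and no source says whether a breed's libraries are from different animals. The p-values therefore reflect the spread among these libraries alone, and that spread may be technical. The libraries are called Tibetan 1, 2 and 3, Wujin 1, a and b (2 Wujin columns share a header and have no number of their own) and Large White 1, 2 and 3, and values of a breed are given in that order. The values are FPKM, which divide a gene's fragments by the length of its transcript and the size of the library, and the number of fragments behind a value is unknown.

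Total FPKM lay between 505042 and 677783 per library. The 10 highest entries held 32.6% to 40.8% of that total in the Tibetan libraries, 22.3% to 22.8% in the Wujin libraries and 18.8% to 25% in the Large White libraries. An entry was tested where it averaged at least 1 FPKM over the 9 libraries, which 13106 entries and 71 of the 83 genes did, and a gene was called at a limma p-value under 0.05 after Benjamini-Hochberg adjustment over all entries tested. The median log2 change over all tested entries was -0.77 in Tibetan minus Large White, -0.20 in Wujin minus Large White and -0.55 in Tibetan minus Wujin. A relative log2 change below is a fitted change minus that median, and ± after a change is its standard error. Counts are also given after median-ratio scaling, which brought those medians to -0.01, 0.00 and 0.00.

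The mitotic genes were far lower in Tibetan muscle than in Large White muscle. Taken over all 83 genes, with no filter, the Tibetan mean was a median of 5.82% of the Large White mean, against 50.8% over all entries tested. It was under 10% for 52 genes, or 62.7%, against 9.56% of all entries tested. The 3 Tibetan libraries all lay below the 3 Large White libraries for 76 genes and above them for 2, against 66.5% and 14.1% of all entries tested. In 53 of the 83 genes every Tibetan library was under 1 FPKM, against 10 genes for the Wujin and 7 for the Large White libraries. At such levels log2(FPKM + 1) understates a change.

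**Figure D1:**
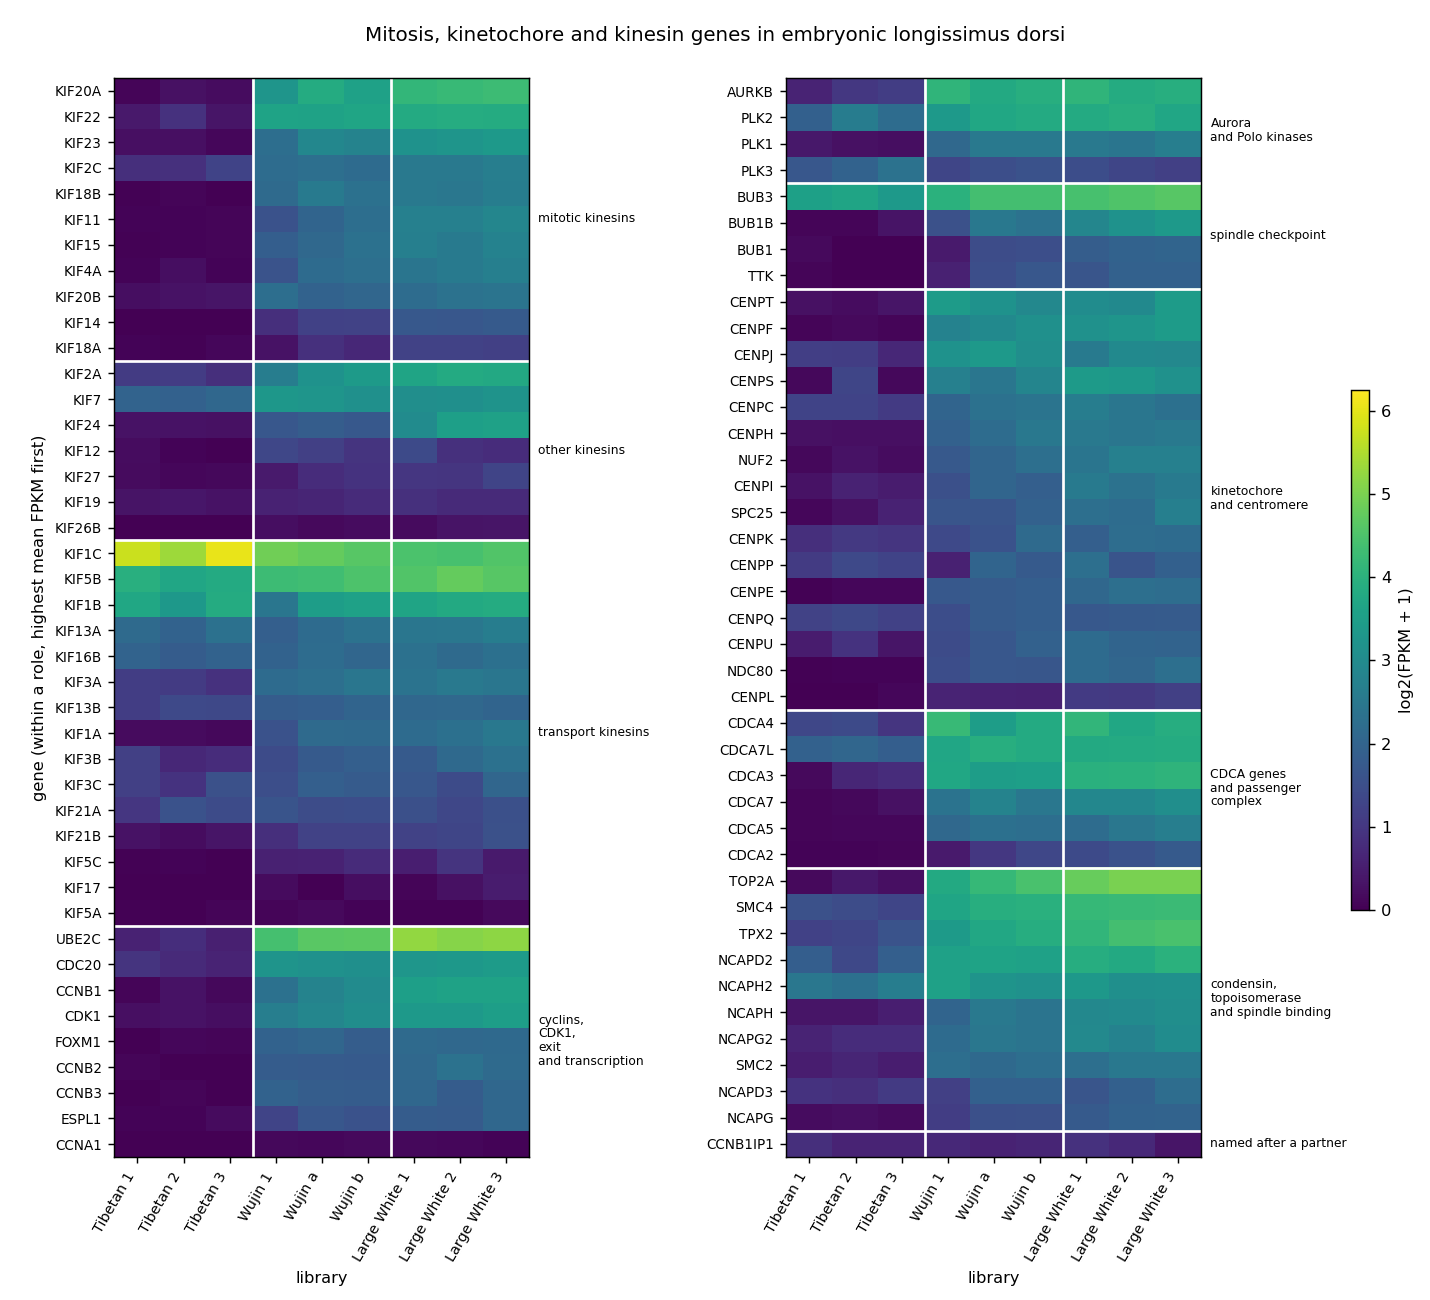
Level of each of the 83 genes in each of the 9 libraries, as log2(FPKM + 1) by colour, with libraries in columns and genes in rows grouped by role. The Tibetan columns are dark for most mitotic genes, while KIF1C, KIF5B and BUB3 stay bright in every column. KIF1B is darker in Wujin 1 (4.45 FPKM) than in the other libraries.

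Of the 71 genes tested in Tibetan minus Large White, limma called 65 lower and 2 higher, with 63.2% and 13% of all entries called in those directions. After median-ratio scaling the counts were 57 lower and 5 higher, with 33% and 32.4% of all entries. Most of the tested genes passed the filter through the other breeds, since 47 of the 71 had a Tibetan mean under 1 FPKM. Among the 24 with a Tibetan mean of at least 1 FPKM, 18 were called lower and 2 higher. The 63.2% and 13% above cover entries of any Tibetan mean, and entries with such a mean were not counted apart. The 2 called higher were KIF1C and PLK3, and CENPP, KIF1B, KIF21A and KIF3C were not called. In bulk tissue, fewer cells of a type and less RNA per cell cannot be told apart.

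In the Tibetan libraries the summed mitotic kinesins were far below the other breeds, whereas the summed transport kinesins overlapped them. The summed FPKM of the 11 mitotic kinesins was 1.77, 2.65 and 2.41 in the Tibetan libraries, 42.2, 54.5 and 52.9 in the Wujin libraries and 70.1, 72 and 77.5 in the Large White libraries. The summed FPKM of the 15 transport kinesins was 92, 72 and 105.7 in the Tibetan libraries, 72.4, 81.9 and 84 in the Wujin libraries and 83.6, 89.2 and 92.7 in the Large White libraries. The mitotic sum was separate in the 3 breeds, with Tibetan lowest and Large White highest, whereas the transport sums of all 3 breeds overlapped. That overlap leaned on KIF1C, which alone held 54.3% to 61.6% of the transport sum in the Tibetan libraries. Its share was 28.2% to 39.8% in the Wujin and 23.2% to 25.6% in the Large White libraries. Of the 15 transport kinesins, 10 were lower in every Tibetan than in every Large White library, and 1, KIF1C, was higher. Over all entries tested those shares were 66.5% and 14.1%, so the count of lower transport kinesins was near that of all entries. The ratio of the mitotic to the transport sum averaged 0.0263 ± 0.00931 in Tibetan, 0.626 ± 0.0412 in Wujin and 0.827 ± 0.0168 in Large White libraries (SD, n = 3 each). No library of 1 breed reached the range of another, and no test was run on this ratio. Without KIF20A and KIF1C, the highest of each class, it was 0.0577 in Tibetan, 0.738 in Wujin and 0.832 in Large White libraries.

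**Figure D2:**
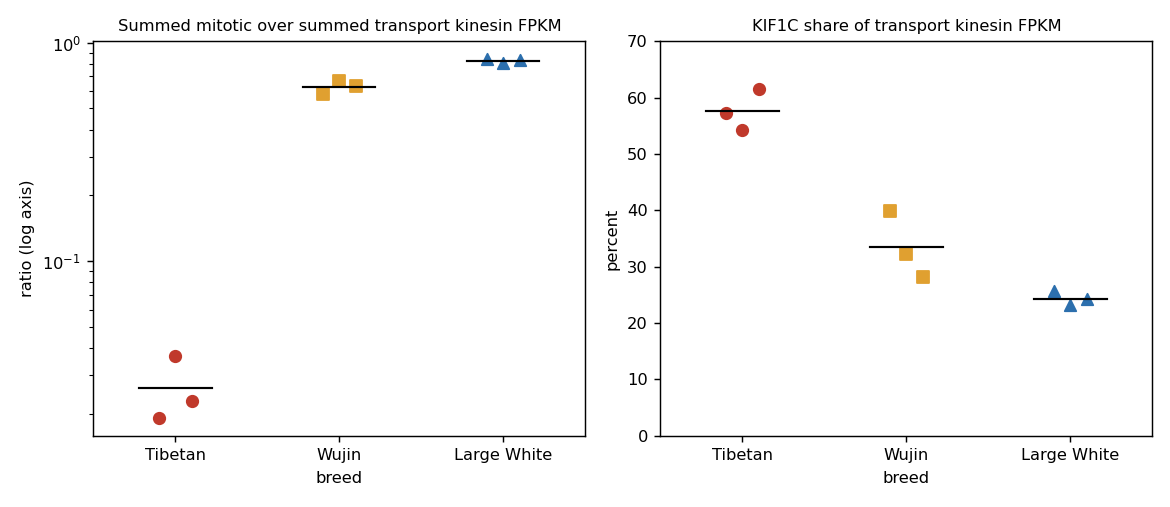
Left, the summed FPKM of mitotic kinesins divided by that of transport kinesins in each library, on a log axis. Right, the percentage of the transport kinesin FPKM that came from KIF1C. Points are libraries and bars are means over n = 3. The ratio was 0.0192 to 0.0368 in Tibetan libraries, against 0.808 to 0.838 in Large White libraries, and the KIF1C share was 54.3% to 61.6% against 23.2% to 25.6%.

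All 10 tested mitotic kinesins were called lower in Tibetan muscle, also after median-ratio scaling, with a median relative log2 change of -1.79. Over all entries 63.2% were called lower, or 33% after that scaling. Each of the 10 had a Tibetan mean under 1 FPKM and passed the filter through the other breeds, which favoured a lower call. KIF20A, which brings the chromosomal passenger complex to the spindle midzone, had 0.068, 0.206 and 0.164 FPKM in the Tibetan libraries, 8.51, 13.3 and 10.9 FPKM in the Wujin libraries and 16.6, 17.5 and 18.5 FPKM in the Large White libraries. The Tibetan values lay near the floor of the table, and the change was -4.02 ± 0.15 (relative -3.24, limma adjusted p = 9.32e-08). KIF22, a chromosome-bound motor that pushes chromosome arms away from the poles, had 0.334, 0.866 and 0.288 FPKM in the Tibetan libraries, 11.4, 11.1 and 11.7 FPKM in the Wujin libraries and 13.1, 13.5 and 13.4 FPKM in the Large White libraries. KIF23, the motor of the centralspindlin complex at the midzone, had 0.194, 0.199 and 0.0724 FPKM in the Tibetan libraries, 3.8, 6.39 and 5.92 FPKM in the Wujin libraries and 8.17, 8.61 and 9.27 FPKM in the Large White libraries. For both genes the 3 Tibetan libraries were far below all others. Their fitted log2 changes were -3.28 ± 0.15 for KIF22 and -3.07 ± 0.17 for KIF23 (limma adjusted p = 1.81e-07 and 4.99e-07).

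KIF2C, which takes microtubules apart at kinetochores, was the mitotic kinesin with the highest Tibetan level relative to Large White. It had 0.801, 0.809 and 1.37 FPKM in the Tibetan libraries, 3.61, 3.86 and 3.59 FPKM in the Wujin libraries and 4.8, 4.73 and 5.42 FPKM in the Large White libraries, so that the Tibetan mean was 19.9% of the Large White mean (fitted change -1.60 ± 0.14, limma adjusted p = 7.03e-06). KIF11, the motor that pushes the spindle poles apart, had 0.0479, 0.0436 and 0.058 FPKM in the Tibetan libraries, 1.99, 3.01 and 3.78 FPKM in the Wujin libraries and 5.59, 5.58 and 6.3 FPKM in the Large White libraries. KIF15, which helps to hold the spindle bipolar, had 0.0231, 0.042 and 0.0699 FPKM in the Tibetan libraries, 2.63, 3.33 and 4.02 FPKM in the Wujin libraries and 5.45, 4.97 and 5.85 FPKM in the Large White libraries. Both stood under 0.1 FPKM in every Tibetan library. KIF14, a motor of cytokinesis, was listed at 0 in the Tibetan libraries, against 2.28, 2.24 and 2.42 FPKM in Large White 1, 2 and 3. KIF18A, which shortens kinetochore microtubules, was under the filter, with 0.0427, 0.0259 and 0.0774 FPKM in the Tibetan libraries, 0.237, 0.822 and 0.622 FPKM in the Wujin libraries and 1.34, 1.34 and 1.28 FPKM in the Large White libraries. It too was lower in every Tibetan than in every Large White library. KIF4A, KIF18B and KIF20B had Tibetan means of 1.77%, 0.51% and 5.76% of the Large White means.

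The transport kinesins did not move as a group. Of 11 tested in Tibetan minus Large White, 7 were called lower, 1 higher and 3 not called, and after median-ratio scaling 3 were lower and 4 higher. Over all entries 63.2% were called lower and 13% higher, or 33% and 32.4% after that scaling, so these counts were near the shares of all entries. The median relative log2 change of the transport kinesins was 0.27 and their median fitted change -0.50, a sign that turned to 0.11 under median-ratio scaling. The Tibetan mean was a median of 54.3% of the Large White mean over all 15, close to the 50.8% of all entries tested, against 1.77% over the 11 mitotic kinesins.

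KIF1C, a motor of vesicles and of messenger RNA transport, went against the rest. It had 52.7, 39.1 and 65.1 FPKM in the Tibetan libraries, 28.8, 26.4 and 23.7 FPKM in the Wujin libraries and 21.4, 20.7 and 22.5 FPKM in the Large White libraries. Every Tibetan library was above every other library, and the Wujin libraries were all above the Large White ones. The fitted change in Tibetan minus Large White was 1.21 ± 0.17 (relative 1.99, limma adjusted p = 0.000182), and it was called higher in every alternative tried. KIF5B, the ubiquitous heavy chain of conventional kinesin that positions nuclei and mitochondria in muscle cells, had 14.3, 11.9 and 13.2 FPKM in the Tibetan libraries, 18.4, 19.2 and 21.9 FPKM in the Wujin libraries and 22.7, 26.2 and 23.6 FPKM in the Large White libraries. The Tibetan libraries were lowest and the change was called lower (-0.84 ± 0.12, limma adjusted p = 0.000174), although after median-ratio scaling it turned to 0.09 and was not called. The FPKM of KIF1C divided by that of KIF5B averaged 3.98 ± 0.860 in Tibetan, 1.34 ± 0.243 in Wujin and 0.895 ± 0.0929 in Large White libraries (SD, n = 3 each).

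KIF1B, which carries mitochondria and vesicle precursors, had 12.2, 9.09 and 13.3 FPKM in the Tibetan libraries, 4.45, 10.2 and 11 FPKM in the Wujin libraries and 11.6, 12.8 and 13.4 FPKM in the Large White libraries. The Tibetan and Large White ranges overlapped and Wujin 1 was lowest. The fitted change of KIF1B in Tibetan minus Large White was -0.14 ± 0.28 and not called (limma adjusted p = 0.672), but after median-ratio scaling it was 0.77 and called higher. KIF13A, an endosome motor, had 3.46, 2.93 and 3.99 FPKM in the Tibetan libraries, 2.72, 3.56 and 4.14 FPKM in the Wujin libraries and 4.46, 4.57 and 5.27 FPKM in the Large White libraries. Its change of -0.37 ± 0.15 was called lower (limma adjusted p = 0.0486), but it turned to 0.41 and was called higher after median-ratio scaling. Without Tibetan 1 or 2 it was -0.38 and -0.29, without Wujin a -0.37, and without Large White 1, 2 or 3 -0.41, -0.40 and -0.31, none of them called. KIF16B, a motor of early endosomes, changed by -0.35 ± 0.12 (limma adjusted p = 0.0244) and likewise turned to 0.40 after median-ratio scaling. It was not called without Tibetan 2 (-0.29) or without Large White 1 or 3 (-0.31 and -0.33).

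Among the neuronal and ciliary transport kinesins, KIF1A, an axonal vesicle motor, had 0.132, 0.133 and 0.0996 FPKM in the Tibetan libraries, 1.99, 3.47 and 3.37 FPKM in the Wujin libraries and 3.58, 3.98 and 4.67 FPKM in the Large White libraries. Its Tibetan mean was 2.98% of the Large White mean, and it was called lower under both scalings (-2.17 ± 0.17, limma adjusted p = 4.48e-06). KIF3A, a subunit of the kinesin that builds cilia, had 1.2, 1.13 and 0.867 FPKM in the Tibetan libraries, 3.52, 3.89 and 4.5 FPKM in the Wujin libraries and 4.19, 4.78 and 4.51 FPKM in the Large White libraries. KIF3A was called lower (-1.41 ± 0.13, limma adjusted p = 8.77e-06), and so was its partner KIF3B (-1.19 ± 0.20), both also after median-ratio scaling. KIF3C, a motor of the same family that can also pair with KIF3A, had a change of -0.50 ± 0.22 and was not called (limma adjusted p = 0.0625), with a sign that turned to 0.11 after median-ratio scaling. It was called lower without Tibetan 3 (-0.67) or Large White 2 (-0.65). KIF13B changed by -0.78 ± 0.12, which was -0.01 relative to all entries and turned positive after quantile normalization. KIF21A, which restrains microtubule growth at the cell cortex, overlapped between the breeds at 0.994 to 2.06 FPKM. The neuronal heavy chains KIF5A and KIF5C, KIF17 and KIF21B were under the filter, and KIF17 was listed at 0 in the Tibetan libraries.

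**Figure D3:**
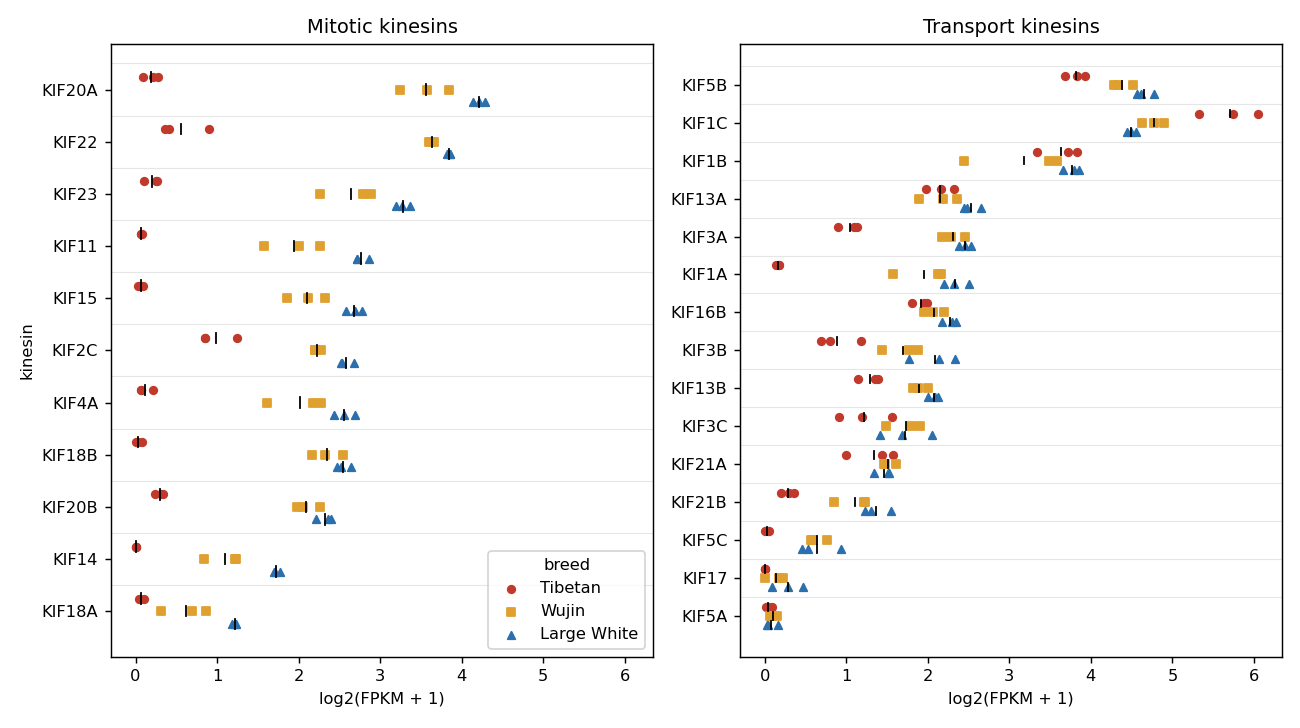
Level of each mitotic (left) and transport (right) kinesin as log2(FPKM + 1), with 1 point per library and a bar at the mean of n = 3 per breed, ordered by the Large White mean. The Tibetan points stand apart on the low side for all 11 mitotic kinesins, and KIF1C is the transport kinesin with every Tibetan point above the other breeds.

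The 7 kinesins placed in neither class were lower in every Tibetan than in every Large White library, as were 66.5% of all entries tested. The 3 tested were called lower under both scalings, with 63.2% and 33% of all entries. KIF24, which sits at the mother centriole and restrains cilium growth, had 0.233, 0.245 and 0.208 FPKM in the Tibetan libraries, 2.26, 2.6 and 2.29 FPKM in the Wujin libraries and 7.11, 10.6 and 10.9 FPKM in the Large White libraries. The 3 breeds were separate for KIF24, with Tibetan lowest and Large White highest (Tibetan minus Large White -3.08 ± 0.16, limma adjusted p = 3.45e-07). KIF2A, a microtubule depolymerase of spindle poles and neurites, had 1.13, 1.16 and 0.794 FPKM in the Tibetan libraries, 5.24, 8.04 and 9.64 FPKM in the Wujin libraries and 11.6, 13.2 and 12.6 FPKM in the Large White libraries. KIF7, which organises the tip of the cilium for Hedgehog signalling, had 2.98, 2.86 and 3.27 FPKM in the Tibetan libraries, 8.96, 8.53 and 7.79 FPKM in the Wujin libraries and 7.54, 7.69 and 8.33 FPKM in the Large White libraries. KIF7 was lower in the Tibetan libraries (-1.13 ± 0.11, limma adjusted p = 1.21e-05), while its Wujin and Large White values overlapped. KIF12, KIF19, KIF26B and KIF27 were under the filter.

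The genes that time mitosis fell together in Tibetan muscle. All 8 tested genes of the cyclin, CDK1, exit and transcription group were called lower under both scalings, with 63.2% and 33% of all entries called lower. Each of the 8 had a Tibetan mean under 1 FPKM and passed the filter through the other breeds. The Tibetan mean was a median of 1.51% of the Large White mean over all 9. CDK1, the kinase that drives mitosis, had 0.203, 0.245 and 0.183 FPKM in the Tibetan libraries, 5.35, 6.35 and 7.42 FPKM in the Wujin libraries and 9.48, 9.5 and 10.3 FPKM in the Large White libraries. Its partner CCNB1, cyclin B1, had 0.0543, 0.23 and 0.0982 FPKM in the Tibetan libraries, 4.0, 5.95 and 7.14 FPKM in the Wujin libraries and 10.6, 11.1 and 11.2 FPKM in the Large White libraries. In both genes the breeds were separate, with Tibetan lowest, Wujin between and Large White highest (Tibetan minus Large White -3.15 ± 0.13 for CDK1 and -3.41 ± 0.17 for CCNB1, limma adjusted p = 1.18e-07 and 3.37e-07).

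UBE2C, the ubiquitin-conjugating enzyme that works with the anaphase-promoting complex, had 0.509, 0.767 and 0.457 FPKM in the Tibetan libraries, 20.1, 24.2 and 24.7 FPKM in the Wujin libraries and 36.6, 33.5 and 35.3 FPKM in the Large White libraries. Its change was -4.52 ± 0.13 (relative -3.75, limma adjusted p = 2.56e-08). CDC20, which activates that complex in mitosis, had 0.909, 0.684 and 0.544 FPKM in the Tibetan libraries, 8.43, 7.88 and 7.63 FPKM in the Wujin libraries and 8.8, 9.13 and 9.79 FPKM in the Large White libraries. CDC20 kept 7.70% of its Large White mean in Tibetan muscle, the highest percentage among these 9 genes. FOXM1, a transcription factor that drives many mitotic genes, had 0.0162, 0.0786 and 0.0588 FPKM in the Tibetan libraries, 2.91, 3.17 and 2.6 FPKM in the Wujin libraries and 3.49, 3.31 and 3.39 FPKM in the Large White libraries. CCNB2, another cyclin B, had 0.0549, 0 and 0 FPKM in the Tibetan libraries, 2.53, 2.48 and 2.41 FPKM in the Wujin libraries and 3.34, 4.12 and 3.48 FPKM in the Large White libraries, and was thus listed at 0 in 2 Tibetan libraries. CCNB3 and ESPL1, the protease separase that cuts cohesin, had Tibetan means of 0.849% and 2.53% of the Large White means. CCNA1, a cyclin of germ cells, was at or under 0.126 FPKM in every library and listed at 0 in the Tibetan ones.

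The Aurora and Polo kinases split by member. AURKB, the kinase of the chromosomal passenger complex, had 0.546, 1.02 and 1.18 FPKM in the Tibetan libraries, 16, 13 and 14.2 FPKM in the Wujin libraries and 16.2, 13.3 and 14 FPKM in the Large White libraries. Tibetan was far below both other breeds, which overlapped (-3.03 ± 0.16 in Tibetan minus Large White, limma adjusted p = 3.45e-07). PLK1, which acts in spindle assembly and cytokinesis, had 0.324, 0.218 and 0.173 FPKM in the Tibetan libraries, 3.3, 4.8 and 4.72 FPKM in the Wujin libraries and 4.76, 4.42 and 5.36 FPKM in the Large White libraries. PLK2, a stress- and serum-induced relative, had 2.75, 5.21 and 3.65 FPKM in the Tibetan libraries, 9.46, 12.1 and 13.2 FPKM in the Wujin libraries and 13.1, 14 and 11.9 FPKM in the Large White libraries. Both were called lower in Tibetan muscle under both scalings, with Tibetan means of 4.91% for PLK1 and 29.7% for PLK2 of the Large White means.

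PLK3, a stress-responsive member of the Polo family, had 2.24, 2.91 and 4.13 FPKM in the Tibetan libraries, 1.47, 1.82 and 1.97 FPKM in the Wujin libraries and 1.8, 1.46 and 1.27 FPKM in the Large White libraries. All 3 Tibetan libraries were above all others, with a spread from 2.24 to 4.13 FPKM, while the Wujin and Large White values overlapped. The change was 0.69 ± 0.18 in Tibetan minus Large White (relative 1.46, limma adjusted p = 0.00694) and 0.55 ± 0.18 in Tibetan minus Wujin (limma adjusted p = 0.0230). The second call was lost without Tibetan 3 (0.38) or without Wujin 1 (0.47). The FPKM of PLK3 divided by that of PLK1 was 6.93, 13.4 and 23.9 in Tibetan 1, 2 and 3, against 0.377, 0.329 and 0.237 in Large White 1, 2 and 3.

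**Figure D4:**
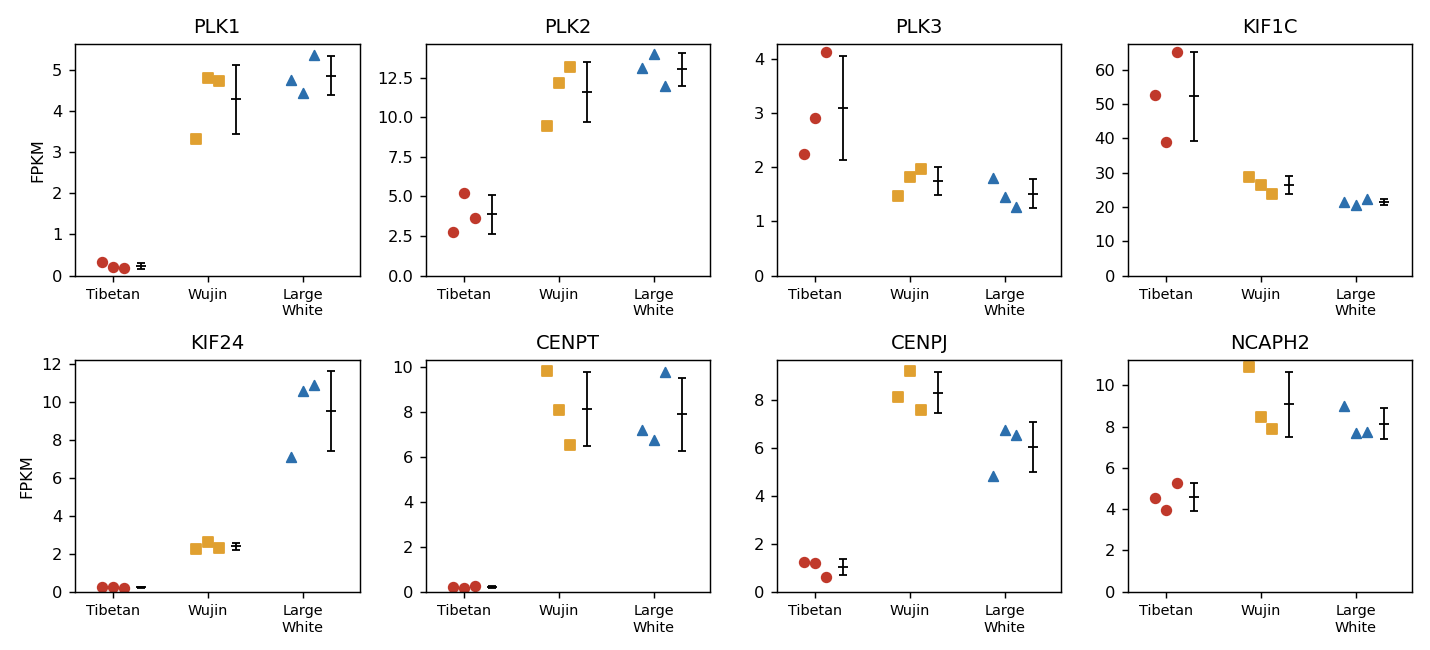
FPKM of PLK1, PLK2, PLK3, KIF1C, KIF24, CENPT, CENPJ and NCAPH2 by breed, on linear axes that start at 0, with 1 point per library and the mean ± SD of n = 3 beside it. PLK3 and KIF1C are higher in the Tibetan libraries, the other 6 are lower, and KIF24 is the gene with Wujin far below Large White.

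All 4 genes of the spindle checkpoint were called lower in Tibetan muscle, as were 63.2% of all entries, but not to the same extent. BUB1B, the BubR1 component of the mitotic checkpoint complex, had 0.0535, 0.0645 and 0.256 FPKM in the Tibetan libraries, 1.95, 4.71 and 4.13 FPKM in the Wujin libraries and 6.29, 8.14 and 9.33 FPKM in the Large White libraries. BUB1, a kinetochore kinase of the checkpoint, had 0.123, 0 and 0 FPKM in the Tibetan libraries, 0.376, 1.74 and 1.85 FPKM in the Wujin libraries and 2.59, 2.87 and 3.06 FPKM in the Large White libraries. TTK, the kinase that starts the checkpoint, had 0.0554, 0 and 0 FPKM in the Tibetan libraries, 0.494, 1.82 and 2.24 FPKM in the Wujin libraries and 2.14, 2.86 and 2.84 FPKM in the Large White libraries. The Tibetan values of all 3 were at or near 0, and Wujin 1 was the lowest of its breed in each. BUB3, the adaptor that brings the BUB kinases to the kinetochore, had 10.8, 11.5 and 9.45 FPKM in the Tibetan libraries, 15, 20.0 and 19.9 FPKM in the Wujin libraries and 20.7, 22 and 23.6 FPKM in the Large White libraries. Its Tibetan mean was 47.8% of the Large White mean. It was called lower (-1.0 ± 0.14, limma adjusted p = 0.000146), but after median-ratio scaling the change was -0.08 and not called.

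Of the 16 kinetochore and centromere genes, 15 were tested in Tibetan minus Large White. Of these, 14 were called lower, or 13 after median-ratio scaling, with 63.2% and 33% of all entries. The relative changes of the 15 genes had a median of -1.30. CENPF, a large outer protein that appears before and during mitosis, had 0.0666, 0.121 and 0.0646 FPKM in the Tibetan libraries, 5.8, 6.83 and 7.73 FPKM in the Wujin libraries and 7.98, 8.64 and 9.85 FPKM in the Large White libraries. Its change was -3.18 ± 0.13 (limma adjusted p = 1.27e-07). CENPT, which links the centromere to the NDC80 complex, had 0.223, 0.154 and 0.268 FPKM in the Tibetan libraries, 9.82, 8.11 and 6.51 FPKM in the Wujin libraries and 7.18, 6.75 and 9.76 FPKM in the Large White libraries. Tibetan was far below the other breeds, which overlapped (-2.86 ± 0.17, limma adjusted p = 8.33e-07). CENPS, a histone-fold protein of the inner kinetochore, had 0.0896, 1.45 and 0.107 FPKM in the Tibetan libraries, 5.58, 4.44 and 6.2 FPKM in the Wujin libraries and 9.67, 9.05 and 7.91 FPKM in the Large White libraries. Tibetan 2 was far above the other Tibetan libraries but below every library of the other breeds.

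The 3 matched members of the NDC80 complex, which binds microtubule ends, were low together, and its other member SPC24 was not matched to an entry. NDC80 had 0.0305, 0.0369 and 0.0367 FPKM in the Tibetan libraries, 1.79, 2.24 and 2.2 FPKM in the Wujin libraries and 3.55, 3.18 and 3.9 FPKM in the Large White libraries. NUF2 and SPC25 had Tibetan means of 3.15% and 6.18% of the Large White means. CENPE, itself a kinesin that carries chromosomes along microtubules, had a Tibetan mean of 1.73%. The inner kinetochore genes were spread widely. CENPH and CENPI had Tibetan means of 4.14% and 8.24% of the Large White means, and CENPL, which was under the filter, one of 2.24%. CENPC, which binds centromeric chromatin, had 1.41, 1.37 and 1.09 FPKM in the Tibetan libraries, 3.07, 4.07 and 4.31 FPKM in the Wujin libraries and 5.25, 4.51 and 3.98 FPKM in the Large White libraries. CENPK and CENPU had Tibetan means of 28.1% and 16.2%.

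CENPQ was called lower (-0.51 ± 0.13, limma adjusted p = 0.00695) but lay at 58.1% of the Large White mean, and its change turned to 0.13 after median-ratio scaling and was not called. CENPP was not called (-0.70 ± 0.34, limma adjusted p = 0.0886), with 1.12, 1.59 and 1.39 FPKM in the Tibetan libraries, 0.486, 3.05 and 2.43 FPKM in the Wujin libraries and 3.83, 2.08 and 2.8 FPKM in the Large White libraries. Wujin 1 stood apart for CENPP, and without it the call was made (-0.70, limma adjusted p = 0.00610). In a division chosen after the values were seen, the 5 outer kinetochore genes had a median relative change of -1.36 and the 9 tested inner CENP genes one of -0.71. CENPJ, which carries a centromere name but sets the length of centrioles, had 1.25, 1.2 and 0.626 FPKM in the Tibetan libraries, 8.13, 9.23 and 7.56 FPKM in the Wujin libraries and 4.83, 6.75 and 6.54 FPKM in the Large White libraries. It was lowest in Tibetan (-1.80 ± 0.17, limma adjusted p = 1.25e-05) and higher in every Wujin than in every Large White library.

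Genes that shape chromosomes and the spindle were lower in Tibetan muscle as well. All 10 were called lower, or 8 after median-ratio scaling, with a median relative change of -1.41. The shares of all entries called lower were 63.2% and 33%. TOP2A, the topoisomerase that untangles sister chromatids, had 0.112, 0.328 and 0.203 FPKM in the Tibetan libraries, 12.9, 17.2 and 20.8 FPKM in the Wujin libraries and 26.7, 30.9 and 30.7 FPKM in the Large White libraries. The breeds were separate, and the change of -4.65 ± 0.17 (relative -3.88, limma adjusted p = 7.47e-08) was the largest fitted fall on the log2(FPKM + 1) scale among the 71 genes tested in this comparison. Its Tibetan mean was 0.728% of the Large White mean, and KIF14, CCNB2, KIF18B and TTK had lower percentages. TPX2, which activates Aurora A and nucleates spindle microtubules, had 1.3, 1.47 and 2.01 FPKM in the Tibetan libraries, 9.69, 12.4 and 14 FPKM in the Wujin libraries and 16.3, 19.7 and 21 FPKM in the Large White libraries. SMC4, a core subunit of both condensins, had 1.92, 1.75 and 1.46 FPKM in the Tibetan libraries, 11.7, 14 and 14.5 FPKM in the Wujin libraries and 17.1, 18 and 18.1 FPKM in the Large White libraries. Its partner SMC2 had a Tibetan mean of 10.6% of the Large White mean.

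The subunits particular to each condensin are known to act at different times, condensin II from prophase in the nucleus and condensin I after the nuclear envelope breaks down. Their division was chosen after the values were seen. The condensin I subunits NCAPD2, NCAPG and NCAPH had a median relative change of -1.42, and all 3 were called lower under both scalings. NCAPH had 0.277, 0.279 and 0.44 FPKM in the Tibetan libraries, 3.04, 4.8 and 4.26 FPKM in the Wujin libraries and 6.61, 6.96 and 7.49 FPKM in the Large White libraries. The condensin II subunits NCAPD3, NCAPG2 and NCAPH2 had a median relative change of -0.21, and of the 3 called lower only NCAPG2 was called after median-ratio scaling. The subunits did not divide cleanly, since the Tibetan mean was 16.6% of the Large White mean for NCAPD2 of condensin I and 10.2% for NCAPG2 of condensin II. NCAPG had a smaller relative change than NCAPG2 (-0.92 against -1.41) but a lower Tibetan percentage, 5.76%. At its low level log2(FPKM + 1) understates the change. NCAPH2 had 4.56, 3.94 and 5.27 FPKM in the Tibetan libraries, 10.9, 8.48 and 7.88 FPKM in the Wujin libraries and 9.01, 7.68 and 7.73 FPKM in the Large White libraries. Its Tibetan libraries were below all others (-0.71 ± 0.15, limma adjusted p = 0.00179), but after median-ratio scaling the change was 0.13 and not called. The FPKM of NCAPH2 divided by that of NCAPH averaged 14.2 ± 2.24 in Tibetan, 2.4 ± 1.02 in Wujin and 1.17 ± 0.174 in Large White libraries (SD, n = 3 each). The Tibetan ratio rests on NCAPH values of 0.277 to 0.44 FPKM. This pair had the widest gap in Tibetan percentages of the Large White mean, 56.4% against 4.73%. The gap was 32.5% against 16.6% for NCAPD3 and NCAPD2, and 10.2% against 5.76% for NCAPG2 and NCAPG.

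All 6 CDCA genes, named as cell division cycle associated, were called lower in Tibetan muscle under both scalings, with 63.2% and 33% of all entries. CDCA3, a trigger of mitotic entry, had 0.121, 0.583 and 0.724 FPKM in the Tibetan libraries, 12.2, 10.2 and 10.5 FPKM in the Wujin libraries and 14.6, 15 and 15.7 FPKM in the Large White libraries. CDCA7 had 0.0565, 0.0913 and 0.205 FPKM in the Tibetan libraries, 4.2, 5.99 and 4.53 FPKM in the Wujin libraries and 6.44, 6.38 and 7.57 FPKM in the Large White libraries. CDCA5, the sororin that protects cohesin, and CDCA2, which brings a phosphatase to chromatin after anaphase, had Tibetan means of 1.57% and 2.48% of the Large White means. CDCA4 and CDCA7L kept 9.67% and 21.8%. CCNB1IP1 is in the rule only because it is named after its partner cyclin B1. It was under the filter at 0.280 to 0.863 FPKM, and its breeds overlapped.

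**Figure D5:**
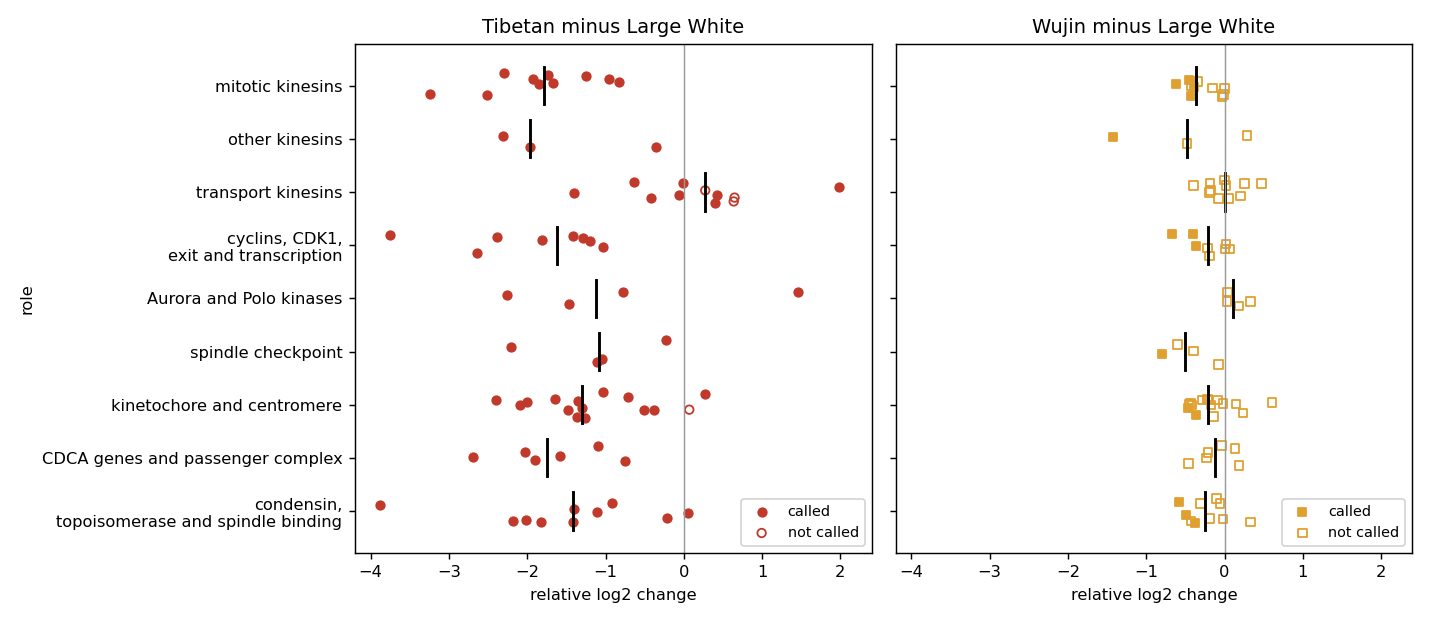
Relative log2 change of each tested gene by role, in Tibetan minus Large White (left) and Wujin minus Large White (right). Filled points were called by limma at an adjusted p under 0.05, open points were not, and bars mark the median of a role. In the Tibetan comparison the medians of the mitotic roles lie at -1.08 to -1.79, with PLK3 far right of 0, while the transport kinesins have a median of 0.27, and in the Wujin comparison the medians of all 9 roles lie between -0.50 and 0.11.

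In Wujin minus Large White the differences were much smaller. limma called 14 of the 71 genes lower and 0 higher, against 4.85% and 1.67% of all entries tested. At an unadjusted p under 0.05, 33 genes were lower and 1 higher, against 26.4% and 6.0% of all entries. After median-ratio scaling 3 were called lower and 0 higher, with 1.27% and 1.86% of all entries. Over all 83 genes the Wujin mean was a median of 72.9% of the Large White mean, against 85.5% over all entries tested. The 3 Wujin libraries were all below the 3 Large White libraries for 47 genes and above them for 2, CENPJ and KIF1C, with 35.3% and 9.67% of all entries in those directions.

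The 14 genes were BUB1B, CCNB1, CDK1, CENPI, KIF11, KIF14, KIF15, KIF20A, KIF24, NCAPG2, NCAPH, NDC80, TOP2A and UBE2C. Of the tested mitotic kinesins 4 were called lower, and of the tested transport kinesins 0 (in the unadjusted counts above, 2 transport kinesins were lower). Apart from KIF24, these genes had limma adjusted p of 0.033 to 0.0482, close to the threshold, and the count changed when a library was left out. It was 2, 8 and 3 without Tibetan 1, 2 and 3, 4, 1 and 19 without Wujin 1, a and b, and 1 without any 1 of the Large White libraries. Tibetan libraries enter this comparison only through the shared estimate of the spread. KIF24 alone of the 14 was called under every alternative in which it was tested. It averaged 4.05 FPKM, so the filter of at least 5 FPKM left it out. Its change was -1.62 ± 0.16 (relative -1.42, limma adjusted p = 0.00246), with a Wujin mean of 25% of the Large White mean. CCNB1 (-0.86 ± 0.17, limma adjusted p = 0.0330) and KIF11 (-0.82 ± 0.17, limma adjusted p = 0.0347) were the others called after median-ratio scaling. Wujin 1 was the lowest Wujin library for 57 of the 83 genes, as it was for 63.2% of all entries tested.

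Tibetan minus Wujin shares the Tibetan libraries with the first comparison, so its values are given beside it and not as further evidence. limma called 63 genes lower and 2 higher, against 53.9% and 13.8% of all entries, and after median-ratio scaling 55 lower and 5 higher, against 30.4% and 30.9%. The Tibetan libraries were all below the Wujin ones for 72 of the 83 genes and above them for 2, with 53.5% and 14.2% of all entries. The mitotic kinesins had a median relative change of -1.42 and all 10 were called lower, also after median-ratio scaling. Of the 11 transport kinesins 5 were called lower and 1 higher, which became 2 lower and 4 higher after median-ratio scaling. KIF20A changed by -3.36 ± 0.15 (limma adjusted p = 2.65e-07) and KIF1C by 0.94 ± 0.17 (limma adjusted p = 0.00111). AURKB, CENPT and PLK1, whose Wujin and Large White values overlapped, changed by -3.02 ± 0.16, -2.90 ± 0.17 and -2.08 ± 0.15.

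Across the 3 breeds, limma's F test called 65 of the 71 genes, with 77.6% of all entries called. The means ran Tibetan, Wujin, Large White from low to high in 71 of the 83 genes, or 63 of the 71 tested, with 53.2% of all entries tested in that order. In 8 genes Wujin was highest and Tibetan lowest. The order was turned round in KIF1C and PLK3, with Tibetan highest and Large White lowest.

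Other genes of the same pathways were taken from lists made with earlier results of these data known. The counts of each list in Tibetan minus Large White stand beside 63.2% of all entries called lower and 13% called higher. After median-ratio scaling those shares were 33% and 32.4%. In the list of other kinetochore, spindle and cytokinesis genes, all 31 measured were called lower in Tibetan minus Large White, 27 after median-ratio scaling, and 7 were called lower in Wujin minus Large White. After median-ratio scaling limma called 0 of the 31 in Wujin minus Large White, where 11 were lower and 1 higher at an unadjusted p under 0.05. KIFC1, a minus-end kinesin that clusters spindle poles and whose name the rule does not take, had 0.0912, 0.189 and 0.11 FPKM in the Tibetan libraries, 5.93, 6.8 and 6.52 FPKM in the Wujin libraries and 6.49, 7.46 and 8.48 FPKM in the Large White libraries. NEK2, a kinase that splits centrosomes, had 0.028, 0.0338 and 0.0337 FPKM in the Tibetan libraries, 4.16, 4.32 and 4.13 FPKM in the Wujin libraries and 5.01, 6.13 and 5.27 FPKM in the Large White libraries. Both were near 0 in the Tibetan libraries. CKAP5, which speeds microtubule growth, had 4.28, 4.29 and 5.49 FPKM in the Tibetan libraries, 12.1, 19.3 and 18.7 FPKM in the Wujin libraries and 22.8, 24.9 and 24.3 FPKM in the Large White libraries. NUMA1, which anchors microtubules at spindle poles and is a nuclear protein between divisions, changed by -0.95 ± 0.14 (limma adjusted p = 0.000188) and was not called after median-ratio scaling.

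The anaphase-promoting complex list had 10 of 10 measured genes called lower, or 6 lower and 1 higher after median-ratio scaling. Its inhibitor FBXO5 had 0.0272, 0.297 and 0.0657 FPKM in the Tibetan libraries, 1.52, 1.76 and 2.45 FPKM in the Wujin libraries and 3.24, 3.63 and 3.22 FPKM in the Large White libraries, and its activator FZR1 changed by -1.51 ± 0.16 (limma adjusted p = 2.69e-05). The subunits ANAPC7 and ANAPC15 changed by -1.46 ± 0.12 and -0.88 ± 0.18, and ANAPC15 was not called after median-ratio scaling. Of 13 cohesin genes, 11 were called lower and 0 higher, or 8 and 2 after median-ratio scaling. SGO1, which guards centromeric cohesin, had 0.0345, 0.0417 and 0.0831 FPKM in the Tibetan libraries, 3.21, 3.46 and 3.18 FPKM in the Wujin libraries and 5.69, 4.65 and 4.33 FPKM in the Large White libraries. RAD21 and SMC3, ring subunits that cohesin also uses outside mitosis, changed by -2.02 ± 0.14 and -1.64 ± 0.11.

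Of 11 transcription factors and DREAM subunits, 9 were called lower and 1 higher, or 5 and 3 after median-ratio scaling. MYBL2, B-MYB, which turns on mitotic genes with the MuvB core, had 0.217, 0.262 and 0.174 FPKM in the Tibetan libraries, 7.48, 7.27 and 6.58 FPKM in the Wujin libraries and 8.05, 8.65 and 11.3 FPKM in the Large White libraries. E2F1, which turns on genes of the G1 to S transition, had 0.297, 0.425 and 0.359 FPKM in the Tibetan libraries, 12.2, 11.1 and 9.9 FPKM in the Wujin libraries and 8.92, 9.01 and 9.41 FPKM in the Large White libraries. LIN37, a MuvB subunit of the repressive DREAM complex, went the other way, with 16.7, 25.3 and 13.7 FPKM in the Tibetan libraries, 13.9, 15.2 and 11.7 FPKM in the Wujin libraries and 10.3, 8.99 and 10.1 FPKM in the Large White libraries. All Tibetan values of LIN37 were above all Large White values (0.82 ± 0.20, limma adjusted p = 0.00482). NFYC, a subunit that binds CCAAT boxes, was called lower (-0.39 ± 0.10, limma adjusted p = 0.00681) and called higher after median-ratio scaling.

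Of 10 tested inhibitors and pocket proteins, 7 were called lower and 1 higher, or 2 and 2 after median-ratio scaling. Over all entries 63.2% were called lower and 13% higher, or 33% and 32.4% after that scaling, so the lower calls were near the share of all entries. CDKN1A, the inhibitor p21, had 36.7, 22.8 and 28.6 FPKM in the Tibetan libraries, 62.5, 57.2 and 53.3 FPKM in the Wujin libraries and 59.4, 46.6 and 40.3 FPKM in the Large White libraries. It was called lower (-0.72 ± 0.19, limma adjusted p = 0.00741), which was 0.05 relative to all entries, and was not called after median-ratio scaling. WEE1, a kinase that restrains CDK1, changed by -1.91 ± 0.14. GADD45B, a stress-induced gene, was called higher (0.93 ± 0.31, limma adjusted p = 0.0222), with 7.01, 17.9 and 16.4 FPKM in the Tibetan libraries, 8.28, 5.07 and 6.66 FPKM in the Wujin libraries and 6.62, 7.2 and 5.12 FPKM in the Large White libraries. Tibetan 1 overlapped the Large White range, and the call was lost without Tibetan 2 (0.70), Tibetan 3 (0.76) or Large White 3 (0.80).

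Of 17 tested kinesin light chains and dynein and dynactin subunits, 11 were called lower and 1 higher, which became 3 lower and 7 higher after median-ratio scaling. The 11 lower calls were near the 63.2% of all entries called lower. KLC2, a light chain that ties conventional kinesin to its cargo, had 16.3, 11.1 and 17.4 FPKM in the Tibetan libraries, 6.45, 7.29 and 6.4 FPKM in the Wujin libraries and 6.08, 6.35 and 7.96 FPKM in the Large White libraries. The Tibetan libraries were above all others (1.02 ± 0.17, limma adjusted p = 0.000545). DYNLL1, a dynein light chain with many other partners, had 57.2, 41.3 and 43.9 FPKM in the Tibetan libraries, 324, 278 and 299 FPKM in the Wujin libraries and 351, 351 and 316 FPKM in the Large White libraries. DCTN2, a dynactin subunit, was called lower (-0.49 ± 0.11, limma adjusted p = 0.00266) and called higher after median-ratio scaling. DYNC1I2, a dynein intermediate chain, changed by -1.48 ± 0.13. In Wujin minus Large White, limma called 0 genes of these 4 last lists and of the anaphase-promoting complex list, and 24 of their 61 tested genes, or 39.3%, had an unadjusted p under 0.05, against 32.4% of all entries.

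Markers of fibre maturity and of other cells also differed between the breeds, in both directions. The 8 listed markers of fibre maturity included ATP2A1, MYBPC2 and MYH8, the last a perinatal myosin. Their summed FPKM was 23861 to 31427 in the Tibetan libraries, 1423 to 1683 in the Wujin libraries and 705 to 956 in the Large White libraries. All 8 were called higher in Tibetan minus Large White. The sum of 4 embryonic sarcomere genes was 85.6 to 109 in the Tibetan libraries, 10824 to 12384 in the Wujin libraries and 9798 to 11689 in the Large White libraries, with all 4 called lower. Of 4 myoblast genes 3 were called lower and 1, DES, higher. The sum of these 4 was 2617 to 3085 in the Tibetan libraries, 1598 to 2025 in the Wujin libraries and 1235 to 1416 in the Large White libraries. That sum followed DES and ran against the other 3, and the median log2 change of the 4 genes in Tibetan minus Large White was -2.00. The sum of 6 fibroblast genes was 319 to 356 in the Tibetan libraries, 3059 to 5569 in the Wujin libraries and 5299 to 5935 in the Large White libraries, with all 6 called lower. For 4 erythroid genes the sum was 149 to 579 in the Tibetan libraries, 1469 to 3838 in the Wujin libraries and 1931 to 3744 in the Large White libraries, and the 3 tested were called lower.

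The sum of 3 endothelial genes was 29.7 to 39.2 in the Tibetan libraries, 45.8 to 72.7 in the Wujin libraries and 75.1 to 79.9 in the Large White libraries, with 2 called lower and 0 higher, or 1 and 1 after median-ratio scaling. Leukocyte, neural and Schwann, and plasma protein genes summed to at most 10.7, 16.8 and 68.4 FPKM in any library. No matched marker was listed at 0 in all 9 libraries, and 6 listed marker symbols were not matched. SLC4A1 of the erythroid list was listed at 0 in Tibetan 3, and AFP of the plasma protein list in Tibetan 2, Tibetan 3 and Wujin a. Each matched marker of fibre maturity, embryonic sarcomeres and myoblasts was above 0 in every library. The part of these markers in the results on the mitotic genes was not tested.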

How the data were processed

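Per the labels' protocols, flash-frozen muscle was extracted with Trizol and libraries were built from total RNA with a TruSeq kit. Per the file headers, the authors deposited 1 table of FPKM per gene and library. The submitters' processing notes name TopHat. Its version, the quantifier, genome build, annotation and use of strand were not given in the sources used here. Symbols were matched by gene identifier for 56.91% of entries. Columns were assigned by their headers, and 2 Wujin columns with 1 shared header were used as replicates without a number.

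Entries averaging at least 1 FPKM over the 9 libraries were fitted as log2(FPKM + 1), a pseudocount of 1, with limma 3.58.1 in R 4.3.3 (lmFit, contrasts.fit, eBayes with a trend; 3 breed means, all 9 libraries, no covariates). P-values were two-sided and corrected over all 13106 entries (Benjamini-Hochberg); the F test used both contrasts with Large White. The procedure was tested on simulated data. Members were matched by a rule on symbols and placed in roles. Full values went to genes of highest level, smallest F-test p or opposite direction in a role, and to further members the results turned on. The members, roles, pathway and marker lists were chosen with earlier results of these data known. Alternatives were other pseudocounts, filters and scalings, a minimum fold change, fewer libraries, each library left out and a replicate block. No sequence was used here.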

Additional observations from a re-analysis of the deposited data

How the results depend on the processing

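In Tibetan minus Large White, 56 of the 67 calls were made in every alternative in which the gene was tested. The same held for 55 of the 65 calls in Tibetan minus Wujin and 1 of 14 in Wujin minus Large White. The minimum fold change was not counted among these alternatives. With at least 5 FPKM, fewer genes were tested, and the genes called were 23 lower and 1 higher in Tibetan minus Large White, 2 lower in Wujin minus Large White, 23 lower and 1 higher in Tibetan minus Wujin, and 24 in the F test. The genes called higher in Tibetan minus Large White were 5 under median-ratio scaling, 6 under quantile normalization and 1 with an absolute log2 change of at least 1. Those called higher in Tibetan minus Wujin were 5, 5 and 0 in the same settings, 1 with equal totals, 1 with only the 6 libraries, and 1 to 2 with 1 library left out. Those called lower in Wujin minus Large White were 1 with a pseudocount of 0.1, 26 with a pseudocount of 5, 3 under median-ratio scaling, 9 under quantile normalization, 5 with equal totals, 3 with equal totals without the 50 highest entries, 1 with only the 6 libraries, 1 with an absolute log2 change of at least 1, and 1 to 19 with 1 library left out. Beyond the smaller number of genes or libraries, the cause was not tested.

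The median log2 change of the mitotic kinesins in Tibetan minus Large White was -4.97 and -1.01 with pseudocounts of 0.1 and 5, -2.51 with no filter, -3.65 with at least 5 FPKM, -2.20 under median-ratio scaling, -1.72 under quantile normalization, -2.58 with equal totals, -2.45 without the 50 highest entries, and -2.61 to -2.51 with 1 library left out. In Tibetan minus Wujin it was -4.34 and -0.70 with those pseudocounts, -1.90 with no filter, -3.22 with at least 5 FPKM, -1.79 under median-ratio scaling, -1.32 under quantile normalization, -2.06 with equal totals, and -2.13 to -1.87 with 1 library left out. In Wujin minus Large White it was -0.27 with a pseudocount of 5 and -0.67 to -0.39 with 1 library left out.

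For the transport kinesins in Tibetan minus Large White the median was -0.76 and -0.21 with pseudocounts of 0.1 and 5, -0.14 with at least 5 FPKM, and turned to 0.11 under median-ratio scaling and 0.40 under quantile normalization. In Tibetan minus Wujin it was -0.21 with a pseudocount of 5 and turned to 0.46 with at least 5 FPKM, 0.14 under median-ratio scaling and 0.13 under quantile normalization. In Wujin minus Large White it was -0.012 under median-ratio scaling, -0.092 without the 50 highest entries and 0.055 under quantile normalization. Without the highest kinesin of each class, the ratio of the sums was 0.0577 in Tibetan and 0.738 in Wujin libraries.

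Signs turned under median-ratio scaling or quantile normalization in these genes, each called before or after that scaling in the comparison given. In Tibetan minus Large White, CENPQ was 0.13 under median-ratio scaling and 0.40 under quantile normalization, KIF13A 0.41 and 0.49, KIF16B 0.40 and 0.53, and NCAPH2 0.13 and 0.11. KIF1B was 0.77 and KIF5B 0.090 under median-ratio scaling, and KIF13B 0.12 and KIF21A 0.79 under quantile normalization. In Tibetan minus Wujin, CENPQ was 0.023 and 0.20, KIF16B 0.41 and 0.47, KIF5B 0.14 under median-ratio scaling and KIF13B 0.042 under quantile normalization. Of the genes called neither before nor after, signs turned in 2 and 3 in Tibetan minus Large White, 12 and 17 in Wujin minus Large White, and 2 and 3 in Tibetan minus Wujin under the 2 scalings.

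Replicate numbers do not pair the samples by any label, and the deviations of same-numbered Tibetan and Large White libraries correlated at 0.01, -0.02 and -0.08. With the replicate number as a block, 67 genes were called lower and 2 higher in Tibetan minus Large White. Wujin had only 1 numbered column, so no such fit was made with it. The planned search of promoters for motifs was not run. Fragment counts are unknown, so counting error at the low Tibetan levels could not be given.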
